A study of Homo sapiens with 8 samples.

Results

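The hnRNP U subfamily comprises 3 human genes, HNRNPU, HNRNPUL1 and HNRNPUL2, and all 3 had a row among the 13471 genes of the deposited gene table. They were chosen by gene symbol and not by their values, though earlier results of these data were known. The question was whether the mRNA of the precipitated protein, hnRNP U, behaved unlike the mRNAs of its paralogues when RNA was recovered with an anti-hnRNP U antibody (immunoprecipitation, IP). The cells were hTERT-RPE1, a line from human retinal pigment epithelium that carries telomerase. The 8 libraries form 4 groups of 2, namely interphase without IP, interphase with IP, mitosis without IP and mitosis with IP. Every group had been in 2 mM thymidine, a block of DNA replication, during 24 h. The mitotic groups were then released during 6 h and left overnight in STLC, a drug that stops cells in mitosis by blocking a spindle motor. The interphase groups therefore stand for cells stalled around the start of S phase, and untreated cells were not among the groups. Nothing in the labels says that the libraries of a group came from separate cultures, so p-values measure only the spread between these libraries, which may be technical. A control-antibody IP was not analysed here, and specific and unspecific recovery cannot be told apart.

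The founding member, hnRNP U (also called SAF-A), is an abundant nuclear protein with a SAP domain that binds DNA, a SPRY domain, an ATP-binding domain and a C-terminal RGG region that binds RNA. It holds nuclear RNA such as XIST on chromatin, and it leaves the chromosomes when cells enter mitosis. HNRNPUL1 and HNRNPUL2 encode proteins of the same domain order that bind RNA and take part in the resection of DNA ends at double-strand breaks.

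Levels are FPKM (fragment counts divided by transcript length and by library size), which is per length and can be set side by side between genes. Across genes, both libraries of a group had log2 values with a Pearson's r between 0.989 and 0.995. The 10 genes of highest level took 58.4% to 63.0% of the FPKM sum without IP and 12.4% to 20.6% in the IP, and the part of this shift in the fold changes was not tested. Depth relative to interphase without IP replicate 1, read from whole-fragment steps in 760 low genes, was lowest in mitosis IP replicate 1 (0.637) and highest in mitosis IP replicate 2 (1.19). The total number of fragments is unknown. All 10 mitotic markers were higher in mitosis without IP (median log2 fold change 1.90, against -0.00229 over all genes). Of 12 markers of mature pigment epithelium only 4 had a row, and RPE65, BEST1 and RLBP1 had none. None of 5 markers of blood, endothelium, liver and neurons had a row. No listed gene was at 0 FPKM in any library, so having no row does not show absence. Shares over all genes are over this listed set.

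Without IP, HNRNPUL1 had the highest level of the subfamily and HNRNPUL2 the lowest, in both phases. In interphase HNRNPU was at 31.7 and 32.4 FPKM, above 84.6% of genes. HNRNPUL1 was at 54.7 and 52.1 FPKM, above 90.8% of genes. HNRNPUL2 was at 4.87 and 4.34 FPKM, above 40.7% of genes. The 3 ranges did not overlap, so the order held in each library. In mitosis HNRNPU was at 46.2 and 47.2 FPKM. HNRNPUL1 was at 72.3 and 60.1 FPKM, the widest spread of the subfamily without IP. HNRNPUL2 was at 15.0 and 14.6 FPKM. The order was the same as in interphase and the ranges again did not overlap. In bulk RNA, fewer cells that express a gene and less RNA per cell cannot be told apart.

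HNRNPUL2 was the member whose level differed most between the phases. In mitosis against interphase without IP its log2(FPKM + 1) was 1.50 higher (SE 0.109, 95% interval 1.25 to 1.75, adjusted p = 2.16e-05), a difference above that of 98.0% of genes. HNRNPU was higher in mitosis by 0.53 (SE 0.098, adjusted p = 0.00225). HNRNPUL1 differed by 0.30 (95% interval 0.04 to 0.56, adjusted p = 0.055), which did not pass the threshold of 0.05. It passed without mitosis no IP replicate 2, the lower of the mitotic values (0.43, adjusted p = 0.0305), while without mitosis no IP replicate 1 the difference was 0.17. Of all genes 51.7% were called in this comparison, 26.2% higher and 25.5% lower, beside 2 of 3 members. Which members were called depended on the processing. After length and GC trends were taken out, HNRNPU was no call (0.21, adjusted p = 0.0869) and HNRNPUL1 was a call (0.34, adjusted p = 0.0269). HNRNPUL2 stayed a call (1.36, adjusted p = 2.13e-05). The HNRNPUL2 difference was larger than those of both paralogues in direct tests. It exceeded that of HNRNPU by 0.97 (SE 0.143, adjusted p = 0.000147) and that of HNRNPUL1 by 1.20 (SE 0.155, adjusted p = 3.76e-05). HNRNPUL1 and HNRNPU differed from each other by -0.23 (95% interval -0.56 to 0.10, adjusted p = 0.19). The sign of this difference turned after length and GC trends were taken out. Of the other genes, 70.5% were called different from HNRNPU and 52% different from HNRNPUL1 in this comparison.

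**Figure D1:**
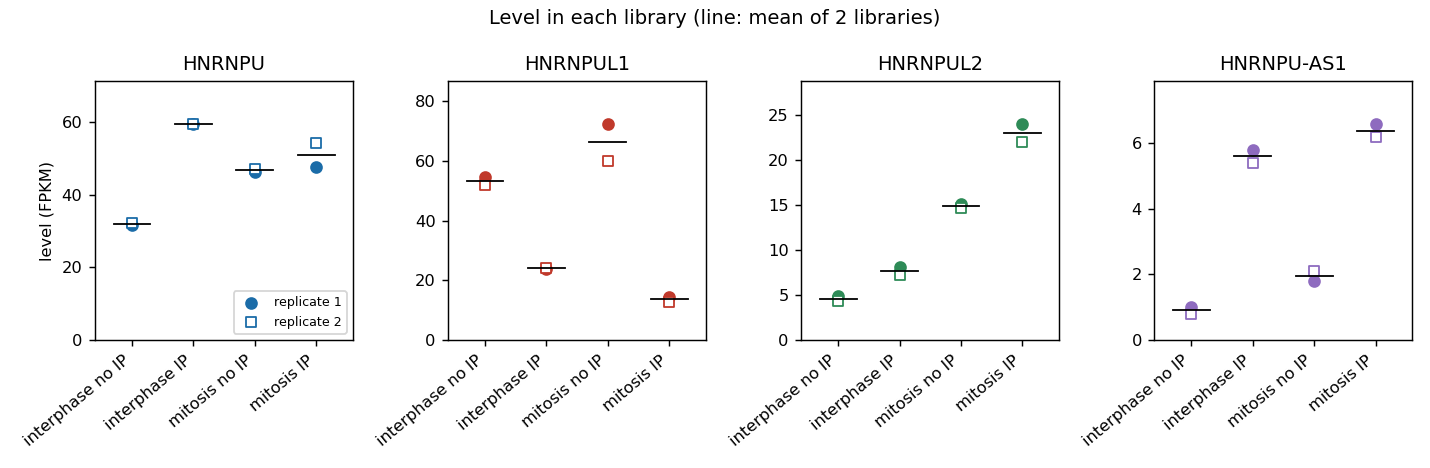
Level in FPKM (y axis, from 0, own scale in each panel) of the 3 subfamily genes and of the HNRNPU-AS1 row in each library of the 4 groups (x axis); filled circles are replicate 1, open squares replicate 2 and lines the mean of 2 libraries. HNRNPUL1 is at 52.1 to 72.3 FPKM without IP and at 12.8 to 24.3 FPKM in the IP, while HNRNPUL2 is highest in the mitotic IP, at 22.0 and 23.9 FPKM.

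The sequences before the transcription starts of the 3 genes are given because their levels differed between the phases to different degrees. They are 250 bases long, 5′ to 3′ on the strand of the gene, from RefSeq on build GRCh38.p14. Capitals mark CCAAT or its reverse complement ATTGG, the box bound by NF-Y, and TTTGAA or its reverse complement TTCAAA, an element found in many genes that peak in G2 and mitosis. HNRNPU lies on the minus strand (chr1:244864544-244864793). HNRNPUL1 lies on the plus strand, and of its 3 listed starts the first (chr19:41262307-41262556) and the second (chr19:41264122-41264371) are shown. HNRNPUL2 lies on the minus strand (chr11:62727458-62727707).
HNRNPU: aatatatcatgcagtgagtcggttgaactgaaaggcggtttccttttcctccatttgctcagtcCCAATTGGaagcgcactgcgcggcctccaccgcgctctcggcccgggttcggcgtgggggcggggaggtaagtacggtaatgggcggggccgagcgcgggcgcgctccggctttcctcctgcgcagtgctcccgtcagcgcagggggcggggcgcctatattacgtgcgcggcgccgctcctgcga
HNRNPUL1, first start: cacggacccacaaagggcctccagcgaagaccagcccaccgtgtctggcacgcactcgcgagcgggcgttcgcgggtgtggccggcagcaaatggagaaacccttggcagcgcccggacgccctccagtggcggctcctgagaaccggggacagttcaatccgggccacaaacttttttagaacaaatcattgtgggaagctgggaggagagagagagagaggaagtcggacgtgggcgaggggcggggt
HNRNPUL1, second start: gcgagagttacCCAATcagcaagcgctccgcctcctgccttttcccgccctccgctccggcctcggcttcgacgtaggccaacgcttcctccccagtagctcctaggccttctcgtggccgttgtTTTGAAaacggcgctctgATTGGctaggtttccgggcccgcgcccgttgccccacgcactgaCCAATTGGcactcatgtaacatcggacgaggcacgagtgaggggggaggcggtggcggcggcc
HNRNPUL2: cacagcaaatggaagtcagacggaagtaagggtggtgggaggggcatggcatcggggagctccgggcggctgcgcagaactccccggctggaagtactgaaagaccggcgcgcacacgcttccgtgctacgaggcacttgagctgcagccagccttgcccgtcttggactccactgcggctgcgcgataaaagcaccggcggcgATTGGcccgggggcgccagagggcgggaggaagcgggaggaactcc
HNRNPU had 2 CCAAT matches, which overlap on opposite strands in CCAATTGG, and no TTTGAA match. The first HNRNPUL1 start had neither motif, while the second had 4 CCAAT matches and 1 TTTGAA match. Of these 4, 2 likewise overlap on opposite strands in CCAATTGG. The third start, not shown, had neither motif. HNRNPUL2, with the largest difference between the phases, had 1 CCAAT match and no TTTGAA match. On either strand, CCAAT was present in 32.0% of 34943 promoter windows of this length and TTTGAA in 13.4% of them. A match describes the letters only.

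In the interphase IP the mRNA of hnRNP U itself was higher than without IP, as was HNRNPUL2, while HNRNPUL1 was lower. HNRNPU was at 59.5 FPKM in both IP libraries, against 31.7 and 32.4 without IP. HNRNPUL1 was at 23.9 and 24.3 FPKM in the IP, against 54.7 and 52.1. HNRNPUL2 was at 8.05 and 7.24 FPKM in the IP, against 4.87 and 4.34. For each member the IP libraries and those without IP did not overlap, as was the case for 87.3% of all genes. In the authors' deposited table, the ratios of IP to total RNA for replicates 1 and 2 were 1.87 and 1.84 for HNRNPU. They were 0.437 and 0.467 for HNRNPUL1 in the authors' deposited table. They were 1.65 and 1.67 for HNRNPUL2 in the authors' deposited table. On the log2(FPKM + 1) scale HNRNPU rose by 0.87 (SE 0.098, 95% interval 0.65 to 1.10, adjusted p = 4.2e-05), a value above that of 79.8% of genes. HNRNPUL2 rose by 0.62 (SE 0.109, 95% interval 0.38 to 0.87, adjusted p = 0.000676). HNRNPUL1 fell by 1.11 (SE 0.115, adjusted p = 2.38e-05), and 19.5% of genes had a lower value. All 3 were called, where 74.6% of all genes were called, 37.6% higher and 37% lower, so the count of calls does not set the subfamily apart.

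In interphase the direct test called HNRNPUL1 different from HNRNPU and did not call HNRNPUL2 different from it, which turned round once length and GC trends were removed (HNRNPUL1 minus HNRNPU -0.20, adjusted p = 0.27, and HNRNPUL2 minus HNRNPU 0.83, adjusted p = 0.000224). HNRNPUL1 was below HNRNPU by 1.99 in its IP effect (difference -1.99, SE 0.150, adjusted p = 2.25e-07). HNRNPUL2 minus HNRNPU was -0.25 (95% interval -0.56 to 0.07, adjusted p = 0.13), so a difference of up to 0.56 in favour of HNRNPU lies within the interval. HNRNPUL2 was above HNRNPUL1 by 1.74 (SE 0.155, adjusted p = 8.63e-08). In these tests 80.9% of other genes were called different from HNRNPU and 85.3% different from HNRNPUL1.

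In the mitotic IP only HNRNPUL2 was called higher, HNRNPUL1 was lower by more than in interphase, and HNRNPU was not called. HNRNPU was at 47.6 and 54.4 FPKM in the IP, against 46.2 and 47.2 without IP. HNRNPUL1 was at 14.5 and 12.8 FPKM in the IP, against 72.3 and 60.1. HNRNPUL2 was at 23.9 and 22.0 FPKM in the IP, against 15.0 and 14.6. The IP libraries lay apart from those without IP for each member, as for 81.5% of all genes, but for HNRNPU the nearest values, 47.6 and 47.2 FPKM, were closer than the spread within the IP. The ratios in the authors' deposited table were 1.03 and 1.15 for HNRNPU. For HNRNPUL1 the authors' deposited table gave 0.200 and 0.213. For HNRNPUL2 it gave 1.59 and 1.50, again in the authors' deposited table. The fitted difference for HNRNPU was 0.12 (SE 0.098, 95% interval -0.10 to 0.35, adjusted p = 0.311), above that of 57.6% of genes. HNRNPUL2 rose by 0.60 (SE 0.109, adjusted p = 0.00123), above 76.6% of genes. HNRNPUL1 fell by 2.20 (difference -2.20, SE 0.115, 95% interval -2.46 to -1.93, adjusted p = 6.4e-06). Of the 13471 genes only 79, or 0.586%, had a lower mitotic IP effect than HNRNPUL1. Called were 2 of 3 members and 64.5% of all genes, 32.8% higher and 31.7% lower.

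In mitosis all 3 members differed from each other. HNRNPUL1 minus HNRNPU was -2.32 (SE 0.150, adjusted p = 2.13e-06) and HNRNPUL2 minus HNRNPUL1 was 2.79 (SE 0.155, adjusted p = 2.53e-10). HNRNPUL2 exceeded HNRNPU by 0.48 (SE 0.143, 95% interval 0.16 to 0.79, adjusted p = 0.013). This last call depended on single libraries. It was lost without mitosis IP replicate 1, the shallowest library (0.32, adjusted p = 0.0866), and without mitosis no IP replicate 2 (0.44, adjusted p = 0.0709). Of other genes 61.7% were called different from HNRNPU and 97.6% different from HNRNPUL1, while 16 genes, or 0.119%, were called lower than HNRNPUL1.

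**Figure D2:**
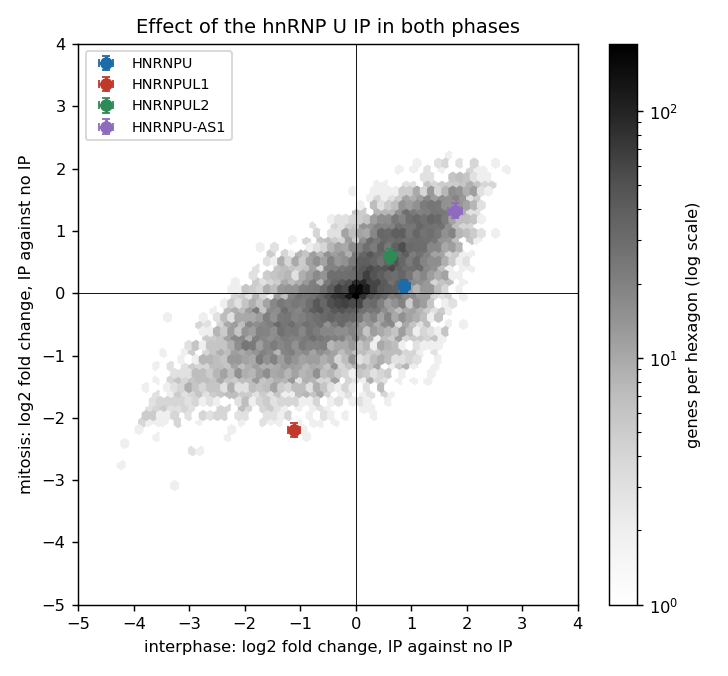
Log2 fold change on the log2(FPKM + 1) scale of IP against no IP in interphase (x axis) and in mitosis (y axis) for the 13471 genes, as shaded hexagons by number of genes on a log scale, with the 3 subfamily genes and HNRNPU-AS1 as coloured points with SE bars; 4 genes lie outside the axes. HNRNPUL1 (-1.11 and -2.20) sits at the lower edge of the cloud, and HNRNPU (0.87 and 0.12) lies to the right of HNRNPUL2 (0.62 and 0.60) and below it.

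The IP effects of HNRNPU and HNRNPUL1 were both lower in mitosis than in interphase, and that of HNRNPUL2 was not called different. The interaction (IP effect in mitosis minus that in interphase) was -0.75 for HNRNPU (SE 0.139, 95% interval -1.07 to -0.43, adjusted p = 0.00248). For HNRNPUL1 it was -1.08 (SE 0.163, 95% interval -1.45 to -0.71, adjusted p = 0.000866), and 6.90% of genes had a lower value. For HNRNPUL2 it was -0.03 (95% interval -0.38 to 0.32, adjusted p = 0.896). Of all genes 47.1% were called in the interaction, 27.2% higher and 19.9% lower. The HNRNPU interaction was lost once length and GC trends were removed (-0.04, adjusted p = 0.827), while that of HNRNPUL1 was then -1.22. HNRNPUL1 minus HNRNPU was -0.33 (95% interval -0.80 to 0.14, adjusted p = 0.176) and did not pass the threshold, although it did without mitosis IP replicate 1 (-0.51, adjusted p = 0.0417). HNRNPUL2 minus HNRNPU was 0.72 (SE 0.202, 95% interval 0.28 to 1.17, adjusted p = 0.0075) and HNRNPUL2 minus HNRNPUL1 was 1.05 (SE 0.219, adjusted p = 0.000525). Once length and GC trends were removed, HNRNPUL2 minus HNRNPU was no call, while HNRNPUL1 minus HNRNPU became a call. Of other genes 73.3% were called different from HNRNPU and 82.5% different from HNRNPUL1 in the interaction.

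Within the IP itself, the levels of the members moved in different directions between the phases. HNRNPUL2 rose from 8.05 and 7.24 FPKM in interphase to 23.9 and 22.0 FPKM in mitosis, by 1.47 (SE 0.109, adjusted p = 8.74e-06). HNRNPUL1 fell from 23.9 and 24.3 FPKM to 14.5 and 12.8 FPKM, by 0.78 (SE 0.115, adjusted p = 0.000387). HNRNPU was at 59.5 FPKM in both interphase libraries and at 47.6 and 54.4 FPKM in mitosis, a difference of -0.22 (95% interval -0.45 to 0.0035, adjusted p = 0.0808). Without mitosis IP replicate 2 the HNRNPU difference passed the threshold (-0.31, adjusted p = 0.0464). Of all genes 61.4% were called in this comparison, 35.8% higher and 25.6% lower, against 2 of 3 members. HNRNPUL2 exceeded HNRNPU by 1.69 (SE 0.143, adjusted p = 2.29e-06) and HNRNPUL1 by 2.25 (SE 0.155, adjusted p = 2.16e-08). HNRNPUL1 minus HNRNPU was -0.56 (SE 0.150, adjusted p = 0.00686). Different from HNRNPU were 62.5% of other genes, and different from HNRNPUL1 were 82.2%.

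The order of the levels changed with the IP. Without IP the HNRNPU mRNA made up 34.6% to 38.7% of the summed FPKM of the subfamily over the 4 libraries, and HNRNPUL1 made up 49.3% to 59.9%. In the interphase IP HNRNPU made up 65.1% and 65.4%, and HNRNPUL1 26.1% and 26.7%. In the mitotic IP HNRNPU made up 55.4% and 61.0%, HNRNPUL2 27.8% and 24.7%, and HNRNPUL1 16.8% and 14.3%. HNRNPU was thus the leading member in each IP library and the second in each library without IP, and HNRNPUL1 was last only in the mitotic IP.

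The 3 genes differ in transcript length and base composition. For HNRNPU (chr1:244840638-244864560, minus strand, build hg38) GENCODE lists 31 transcripts, of which 10 retain an intron and 9 are subject to nonsense-mediated decay. Its longest protein-coding transcript inside the interval of the file has 6858 nt, longer than 90.7% of genes, and 41.8% GC. HNRNPUL1 (chr19:41262496-41307598, plus strand) has 22 listed transcripts, and the one used has 3555 nt and 56.3% GC. HNRNPUL2 (chr11:62712630-62727472, minus strand) has 2, and the one used has 5229 nt and 52.2% GC. The median over genes was 2933 nt and 48.3% GC.

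Smooth trends with length and GC were removed from the log2 values of each library. This turned the sign of the IP effect within each phase for HNRNPU and not for its paralogues. In interphase the HNRNPU value was then -0.41 (adjusted p = 0.00491) and in mitosis -0.45 (adjusted p = 0.00278), with an interaction of -0.04 (adjusted p = 0.827). HNRNPUL1 was at -0.60 in interphase and -1.83 in mitosis, where 1.11% of genes were lower. HNRNPUL2 was at 0.43 in interphase and 0.65 in mitosis. The higher value of HNRNPU in the interphase IP thus held only for values not corrected for length and GC, whereas the lower value of HNRNPUL1 and the higher value of HNRNPUL2 held under both. Whether the trend is technical or part of what hnRNP U recovers was not tested.

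**Figure D3:**
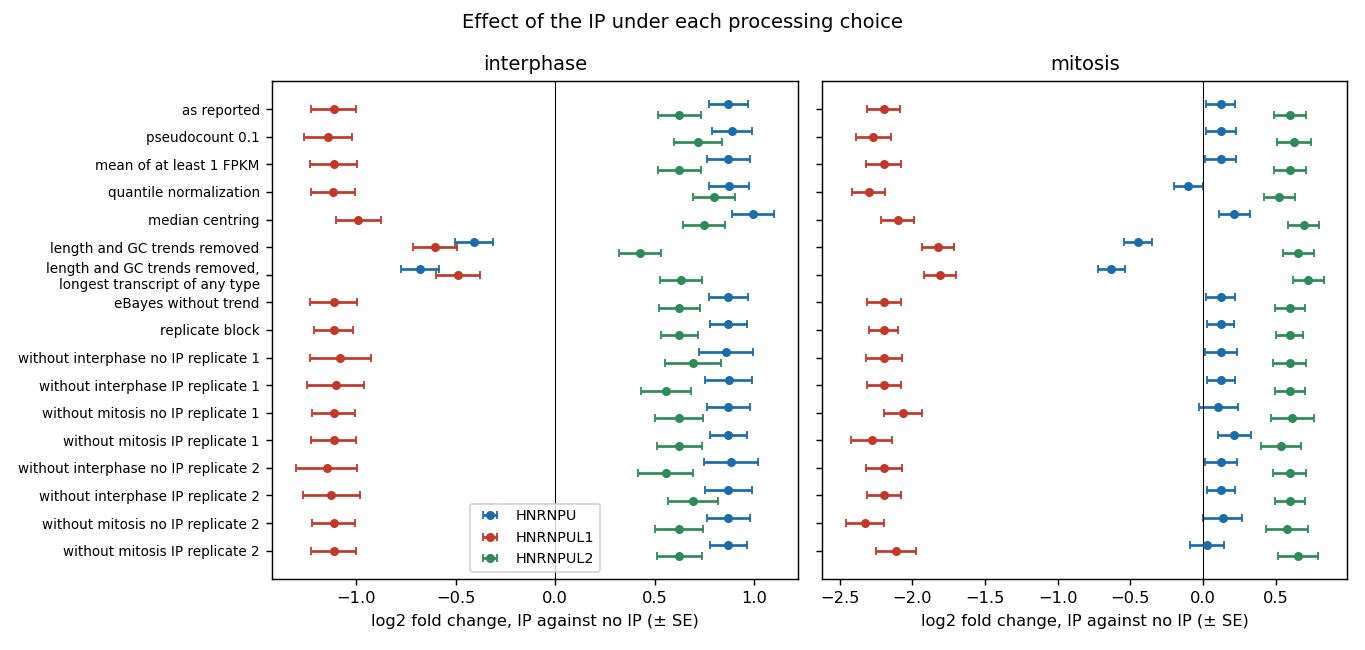
Log2 fold change with SE bars (x axis) of IP against no IP for the 3 subfamily genes in interphase (left) and mitosis (right), for the values as reported and each alternative processing choice (y axis). HNRNPUL1 stays below 0 and HNRNPUL2 above 0 throughout, while HNRNPU falls to -0.41 and -0.45 once length and GC trends are removed.

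Beside HNRNPU lies the row HNRNPU-AS1, which had a larger IP effect than the HNRNPU row, both without removal of length and GC trends. Although the symbol is that of an antisense transcript, RefSeq lists it as a synonym of HNRNPU, and GENCODE release 29 could be matched to the row only through HNRNPU itself, on the minus strand. Its level was 1.00 and 0.798 FPKM in interphase without IP and 5.79 and 5.37 FPKM in the IP. In mitosis it was 1.79 and 2.09 FPKM without IP and 6.57 and 6.18 FPKM in the IP. IP and no IP libraries did not overlap in either phase, as for 87.3% of all genes in interphase and 81.5% in mitosis. HNRNPU-AS1 rose by 1.79 in interphase (SE 0.121, adjusted p = 2.09e-06), above 97.3% of genes, and by 1.33 in mitosis (adjusted p = 2.61e-05). It exceeded HNRNPU by 0.92 in interphase (SE 0.152, adjusted p = 0.000151) and by 1.20 in mitosis (SE 0.152, adjusted p = 4.41e-05). The row shares its interval (chr1:244835336-244846941) with COX20, an assembly factor of cytochrome c oxidase on the plus strand, and the annotated 3′ part of HNRNPU reaches into it. The libraries were directional, but whether counting used the strand is not given in the sources used here, so the origin of these fragments cannot be told apart. COX20 itself rose by 0.73 in the interphase IP (adjusted p = 0.00012), and in mitosis its rise was 0.32 (adjusted p = 0.0176).

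Around HNRNPUL2 and HNRNPUL1 every called neighbour was lower in the interphase IP. Values of neighbours are given without removal of length and GC trends. HNRNPUL2 has in the file the same interval (chr11:62690261-62727385) as BSCL2, the seipin gene of lipid droplet formation, and GENCODE also lists a readthrough transcript of both, so fragments may be divided between the rows. BSCL2 was at 12.0 and 13.0 FPKM in interphase without IP and at 2.24 and 1.99 FPKM in the IP, a fall by 2.11 (adjusted p = 6.73e-07) where HNRNPUL2 rose. In mitosis BSCL2 was at 9.74 and 10.3 FPKM without IP and at 10.4 and 11.2 FPKM in the IP (0.10, adjusted p = 0.449). Of the 14 rows within 50 kb of HNRNPUL2, 0 rose and 9 fell in the interphase IP, and 1 was higher and 7 lower in the mitotic IP. Over all genes, 37.6% rose and 37% fell in the interphase IP, and 32.8% rose and 31.7% fell in the mitotic IP. The 1 higher row was TTC9C, which was at -1.03 in interphase and 0.64 in mitosis. Among the 14 rows, C11orf98, LBHD1, METTL12, SNORA57 and UQCC3 share 1 interval, so the rows are not all separate loci. Around HNRNPUL1 all 5 rows within 50 kb, of which B9D2 and TMEM91 share 1 interval, were lower in the interphase IP. In the interaction 4 of these 5 were higher and 0 lower, opposite in direction to HNRNPUL1, where 27.2% of all genes were higher and 19.9% lower. Of these 4, TMEM91, CCDC97 and B9D2 were at low levels, with group means of 0.29 to 1.38, 0.84 to 2.84 and 0.84 to 4.13 FPKM. TGFB1 was at 5.95 to 19.3 FPKM. The fifth, AXL, a receptor tyrosine kinase gene whose end lies 708 bp from HNRNPUL1, was at -0.45 in interphase and -0.96 in mitosis.

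**Figure D4:**
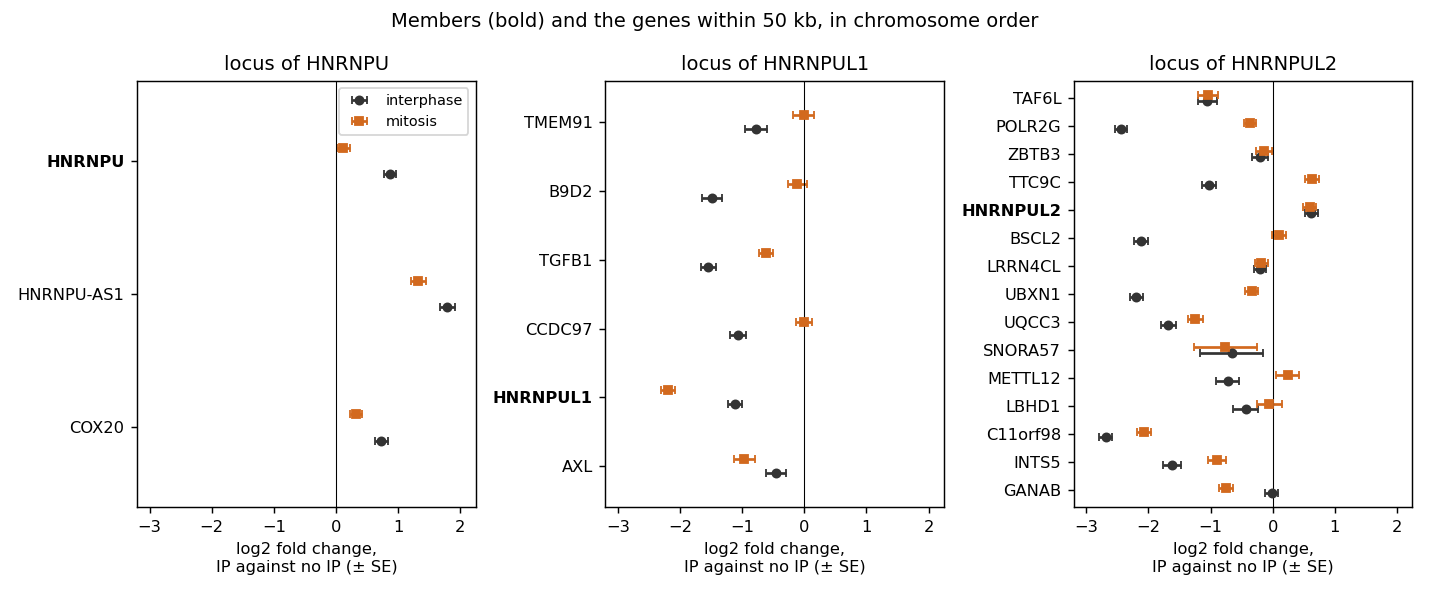
Log2 fold change with SE bars (x axis) of IP against no IP for each subfamily gene (bold) and the rows within 50 kb (y axis, in chromosome order), with circles for interphase and squares for mitosis. HNRNPUL2 (0.62 and 0.60) stands to the right of BSCL2, which is at -2.11 in interphase, and HNRNPUL1 has the lowest mitotic value of its locus.

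Other hnRNP genes moved in both directions in the IP. Over all genes, 37.6% were called higher and 37% lower in interphase, and 32.8% higher and 31.7% lower in mitosis. Of 24 other hnRNP genes 23 had a row, and 7 were higher, 5 lower and 11 not called in interphase (median 0.09, against 0.02 over all genes). Once length and GC trends were removed, 4 were higher and 8 lower, where 3111 of 13145 genes were higher and 4636 lower. HNRNPA3 (1.64) and SYNCRIP (1.30), an mRNA-binding hnRNP also called hnRNP Q, had the largest increases, and RALY (-2.06) and HNRNPL (-1.48), a splicing regulator, the largest decreases. In the mitotic IP 9 were higher and 7 lower (median 0.20, against 0.01 over all genes). After removal of the trends the median was -0.18, against 0.02 over all genes. HNRNPUL1, at -2.20, lay below the lowest of them, which was at -2.05. In mitosis without IP 14 of the 23 were higher and 0 lower (median 0.51), where 26.2% of all genes were higher and 25.5% lower. This was the direction of all 3 members, though HNRNPUL1 was no call (0.30, adjusted p = 0.055). Once length and GC trends were removed, HNRNPU was no call and HNRNPUL1 became a call.

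Of 16 other genes with a SAP domain, 7 rose and 7 fell in the interphase IP (median -0.12), where 37.6% of all genes rose and 37% fell. In the mitotic IP 3 were higher and 11 lower (median -1.01, against 0.01 over all genes), where 32.8% of all genes were higher and 31.7% lower. In the interaction 0 were higher and 11 lower (median -0.78, against 0.07), where 27.2% of all genes were higher and 19.9% lower. After removal of length and GC trends 1 was higher and 11 lower (median -0.75). Of all 13145 genes in that fit, 3663 were higher and 2198 lower (median 0.13). The subfamily values were -0.75 for HNRNPU, -1.08 for HNRNPUL1 and -0.03 for HNRNPUL2, and that of HNRNPU was -0.04 once the trends were removed. SAFB, a scaffold attachment factor like hnRNP U, was at -0.39 in interphase (adjusted p = 0.047) and -1.39 in mitosis (adjusted p = 7.02e-05). SAFB2, its close paralogue, was at -0.76 (adjusted p = 0.00189) and -1.23 (adjusted p = 0.000148). The largest increases in interphase were PIAS2 (1.69), a SUMO ligase, and MKL2 (1.52), a coactivator of serum response factor. The largest decreases were SARNP (-2.35), a factor of mRNA export, and PIAS4 (-0.97).

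Of 13 genes of DNA end resection, the process HNRNPUL1 and HNRNPUL2 take part in, 10 rose and 2 fell in the interphase IP (median 1.05). Once length and GC trends were removed, 3 were higher and 3 lower (median 0.06). Of all 13145 genes in that fit, 3111 were higher and 4636 lower (median -0.10). ATM (1.90), the kinase of the break response, and BRCA1 (1.66) led the increases, and RPA3 (-2.28) and RPA2 (-0.74), subunits of the single-strand binding complex, the decreases. In the mitotic IP 6 were higher and 5 lower. Without removal of the trends, the shares of all genes were 37.6% higher and 37% lower in interphase, and 32.8% higher and 31.7% lower in mitosis. The members of the MRN complex that opens resection were all called higher in interphase, without removal of the trends. In mitosis NBN was called higher, RAD50 lower and MRE11A not at all. They were not tested against each other. NBN was at 1.60 in interphase and 1.19 in mitosis. RAD50 was at 1.04 and -0.91, and MRE11A at 1.16 and 0.13.

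**Figure D5:**
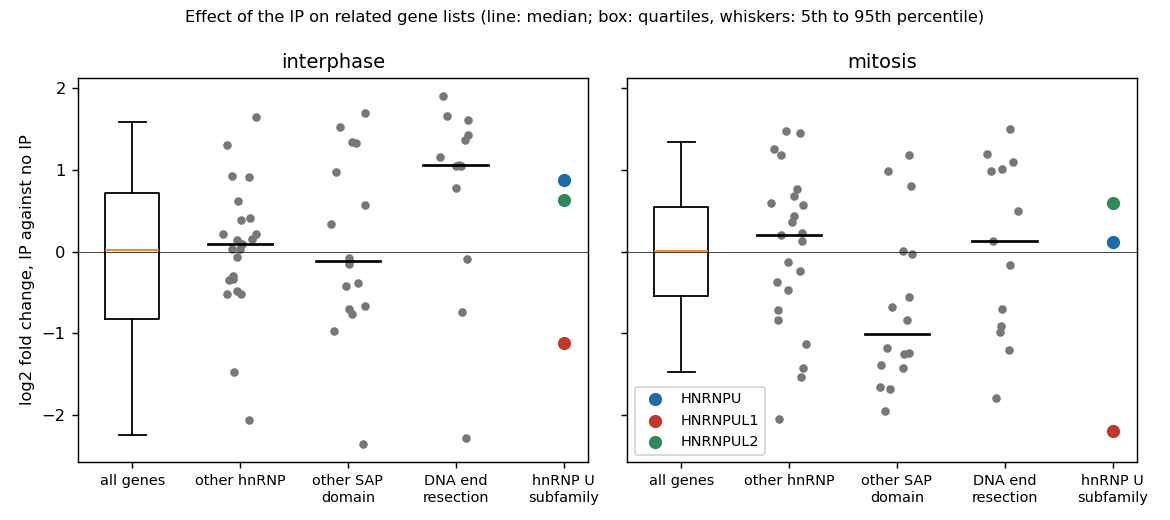
Log2 fold change (y axis) of IP against no IP in interphase (left) and mitosis (right) for all genes (box: quartiles, whiskers: 5th to 95th percentile), for each gene of 3 related lists (grey points, line: median) and for the 3 subfamily genes (coloured points). The SAP domain list has a median of -0.12 in interphase and -1.01 in mitosis, and HNRNPUL1 at -2.20 lies below the points of the lists in mitosis.

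Across the 8 libraries the log2 level of HNRNPU correlated with that of HNRNPUL1 at Pearson's r = -0.58 and with that of HNRNPUL2 at 0.51, and HNRNPUL1 with HNRNPUL2 at -0.47. These values describe 4 groups of 2 libraries that share their treatment. The genes most like HNRNPU among 11270 others were ITPR2 (0.994), a calcium channel of the endoplasmic reticulum, WDFY2 (0.992), CEP192 (0.991), a centrosome scaffold, WDHD1 (0.991), a replication factor, and CEP70 (0.990). Most like HNRNPUL1 were ATXN7L3 (0.992), a subunit of the SAGA deubiquitinase, LSM14B (0.990), SSRP1 (0.990), a subunit of the histone chaperone FACT, YARS (0.990), the tyrosyl-tRNA synthetase, and PACS1 (0.988). Most like HNRNPUL2 were EBLN2 (0.996), PGM2 (0.996), UGDH (0.996), the UDP-glucose dehydrogenase, GHRLOS (0.995) and RRM2 (0.994), a subunit of ribonucleotide reductase. None of these genes was most like more than 1 member, and no member was among those most like another.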

How the data were processed

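RNA without IP and RNA from an anti-hnRNP U IP was sequenced in 8 libraries of 4 groups. The deposited values are FPKM per library, per the file headers, and the submitters' processing notes name TopHat and StringTie, with no role. The authors' ratio columns are quotients of FPKM columns of the same replicate number, and all 80826 ratios equalled these quotients (relative tolerance 1e-06). A deposited lncRNA table was not used here. Values were fitted as log2(FPKM + 1) with limma 3.58.1 in R 4.3.3 (lmFit, eBayes with trend) over all 13471 genes, with 1 coefficient per group, no filter, no replicate block and 4 residual degrees of freedom. Benjamini-Hochberg adjustment ran over all genes, and calls had an adjusted p below 0.05. Fold changes on this scale understate those of low genes. Differences between members were tested by subtracting the log2 value of HNRNPU, or of HNRNPUL1, in the same library and refitting the other 13470 genes. The fits were tested on simulated data. GENCODE release 29 matched 12678 genes by symbol and 467 by an older symbol, and 326 stayed unmatched. The length and GC trends were natural splines with 5 degrees of freedom. Named were the members, all rows within 50 kb, the 5 genes most correlated with each member (mean of at least 1 FPKM), and in each list the 2 largest called changes in each direction, besides SAFB, SAFB2 and the MRN genes. The members and lists were chosen with earlier results of these data known. Alternatives were a pseudocount of 0.1, a minimum mean of 1 FPKM, quantile normalization, median centring, the trend removal, eBayes without trend, a replicate block and leaving out each library.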

Additional observations from a re-analysis of the deposited data

Results flagged for a closer look

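Considered here were only the members, HNRNPU-AS1, COX20, BSCL2 and TTC9C. For 5 of these genes the effect of the IP differed between mitosis and interphase by limma's interaction test, which shares 1 fit over all 8 libraries. Of all genes 47.1% were called in this test, so a call does not set these 5 apart. The value for HNRNPU was -0.75 (log2, adjusted p = 0.00248), which was no call once length and GC trends were removed. For HNRNPUL1 it was -1.08 (adjusted p = 0.000866). COX20, beside HNRNPU, had -0.41 (adjusted p = 0.0367). BSCL2, which shares its interval with HNRNPUL2, had 2.22 (adjusted p = 5.28e-05), and TTC9C, the next gene, had 1.67 (adjusted p = 0.000117). Between members, HNRNPUL2 exceeded HNRNPU by 0.72 in this change (adjusted p = 0.0075) and HNRNPUL1 by 1.05 (adjusted p = 0.000525). The excess over HNRNPU was no call once length and GC trends were removed.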

How the results depend on the processing

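For 15 member values and 15 differences between members, a pseudocount of 0.1, a minimum mean of 1 FPKM and eBayes without trend changed no call or direction. Median centring moved the median of all genes from 0.02 to 0.14 in the interphase IP and made the HNRNPU difference between phases in the IP a call (-0.33). Quantile normalization made it -0.49, also a call, and turned the HNRNPU value in the mitotic IP to -0.10. Removing length and GC trends turned HNRNPU in the interphase IP to -0.41 and in the mitotic IP to -0.45, and its interaction of -0.040 was no call. HNRNPU in mitosis without IP was then 0.21, no longer a call, and in the IP 0.17, reversed. HNRNPUL1 in mitosis without IP became a call (0.34), and the HNRNPUL2 interaction turned to 0.23. HNRNPUL1 minus HNRNPU was -0.20 in the interphase IP (no call), -1.18 in the interaction (a call) and 0.13 between phases without IP (reversed). HNRNPUL2 minus HNRNPU turned to 0.83 in the interphase IP and was 0.27 in the interaction, no call. With the longest transcript of any type, chosen after seeing the data, HNRNPU was -0.68 in the interphase IP, -0.63 in the mitotic IP, 0.052 in the interaction, 0.17 between phases without IP and 0.22 in the IP. The HNRNPUL2 interaction was 0.092 and HNRNPUL1 between phases without IP 0.34. HNRNPUL1 minus HNRNPU was 0.19 in the interphase IP, -1.37 in the interaction and 0.17 between phases without IP, and HNRNPUL2 minus HNRNPU was 1.31 in the interphase IP and 0.041 in the interaction. The cause was not tested. The deviations of same-numbered libraries correlated at 0.0883 to 0.528 between groups, and 1 of 6 correlations was under 0.1, so pairing by number was not established. A replicate block made HNRNPUL1 in mitosis without IP a call (0.30, adjusted p = 0.0306) and changed no other member call. Leaving out 1 library at a time gave -0.097 to 0.040 for the HNRNPUL2 interaction, 0.32 to 0.63 for HNRNPUL2 minus HNRNPU in the mitotic IP, -0.51 to -0.15 for HNRNPUL1 minus HNRNPU in the interaction, 0.17 to 0.43 for HNRNPUL1 between phases without IP and -0.31 to -0.13 for HNRNPU between phases in the IP. A lone library is there assumed to vary like the other groups. Depth is known only as a ratio, so no detection floor is given.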
